A study of Mus musculus with 5 samples.

Results

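A set of 10 genes that hold back the cell cycle or act in the p53 pathway are described here, chosen by symbol: the 7 cyclin-dependent kinase (CDK) inhibitors Cdkn1a, Cdkn1b, Cdkn1c, Cdkn2a, Cdkn2b, Cdkn2c and Cdkn2d, together with Trp53, Mdm2 and Gadd45a. They make up 10 of 24843 genes, and 18 of 40201 RefSeq transcript rows, for which expression was measured by RNA sequencing. The measurements came from 2 samples of mouse neural stem cells (NSCs) and 3 samples of STO cells, cultured within a study of chromosome structure in stem cells. The NSCs were primary cells from the embryonic cortex of C57BL/6 mice, grown for 5 to 8 passages as a monolayer on poly-ornithine and laminin with EGF, bFGF, heparin and B27. STO is an established line of SIM mouse embryonic fibroblasts, kept for over 30 passages in DMEM with fetal bovine serum; its strain is labelled C57BL/6 as well. The study's methods describe STO cells as resistant to thioguanine and ouabain. Neither group carried a further treatment or engineered allele according to the labels. Cell type, drug resistance of the line, time in culture, medium, growth factors and serum differed together between the groups and cannot be told apart. Nothing in the labels says that samples of a group came from separate cultures, so p-values measure the spread between these samples, which may be technical.

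CDK inhibitors bind cyclin-CDK complexes and brake the cell cycle. The Cip/Kip family (Cdkn1a, Cdkn1b and Cdkn1c) acts broadly on cyclin-CDK complexes, while the INK4 family binds Cdk4 and Cdk6 and keeps them from D-type cyclins. Cdkn2a is unusual because alternative first exons, read on through shared exons in different frames, encode p16Ink4a, an INK4 protein, and p19Arf, which frees p53 from Mdm2. The transcription factor p53, encoded by Trp53, activates Cdkn1a, Mdm2, Gadd45a and many other genes, and Mdm2 in turn marks p53 for degradation. In mouse cells kept in culture these inhibitors are known as brakes on continued division, and established fibroblast lines commonly arise after the p19Arf-p53 pathway is lost; neither protein level nor mutation is read by the values given here.

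Expression was given as FPKM (fragments per kilobase of transcript, scaled to the mapped fragments of each sample), so levels of different genes can be compared per length. FPKM of all rows of a gene were summed, and groups were compared with limma on log2(FPKM + 1), with p-values adjusted over 12277 genes by the Benjamini-Hochberg method. Genes entered the test when their mean was at least 1 FPKM in either cell type; all 10 genes entered it, and a gene is called when its adjusted p was under 0.05. The summed FPKM of a sample ran from 385485 to 446393, and the confidence intervals deposited with the values imply 15223341 to 22271895 fragments per sample. Implied fragments come from the widths of these intervals and are not read counts. Replicates had Pearson correlations of 0.994 to 0.995 on the log2 scale, across genes with a mean of at least 1 FPKM over all samples. The NSC markers Nes, Sox2, Pax6 and Olig2 summed to 943 to 989 FPKM in NSCs and to 0.0380 to 0.0724 in STO cells, where Sox2, Pax6 and Olig2 were listed at 0. The 9 fibroblast markers summed to 1563 to 1677 FPKM in STO cells and to 10.8 to 11.2 in NSCs, where Col3a1 and Twist2 were listed at 0. NSC cultures also held the higher sums for 6 neuron markers (118 against 12.3 to 12.8 FPKM), 4 astrocyte markers (70.4 to 71.4 against 0.242 to 0.432) and 4 oligodendrocyte markers (120 to 122 against 0.961 to 1.14). Map2 made up most of the neuron sum in NSCs, at 100.4 and 102 FPKM; Tubb3 did not pass the test (9.25 and 8.14 against 8.57, 7.84 and 8.49 FPKM, limma adjusted p = 0.476), and Rbfox3 and Stmn2 were under 1 FPKM in every sample. These lists moved with cell type like the results that follow, and their part in them was not tested. In such bulk samples, fewer cells expressing a gene and less of its RNA per cell cannot be told apart.

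Of the 10 genes, Cdkn2c, Trp53, Mdm2 and Gadd45a were higher in STO cells, and Cdkn1a, Cdkn1b, Cdkn1c, Cdkn2b and Cdkn2d were lower. Cdkn2a did not pass the test. Most genes differ between these cell types: 85.7% of all genes tested were called, 41.9% as higher and 43.7% as lower in STO cells, so that 9 called genes of 10 is near the background. With a log2 difference of at least 1 asked for as well, 2 of the 10 (Mdm2 and Gadd45a) were higher and 4 (Cdkn1a, Cdkn1c, Cdkn2b and Cdkn2d) lower, against 17.1% and 21.3% of all genes, or 38.4% in either direction. The median log2 difference of the 10 genes was -0.41, and that of all genes tested was -0.02. The groups did not overlap in 9 of the 10 genes, as in 90% of all genes tested.

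**Figure D1:**
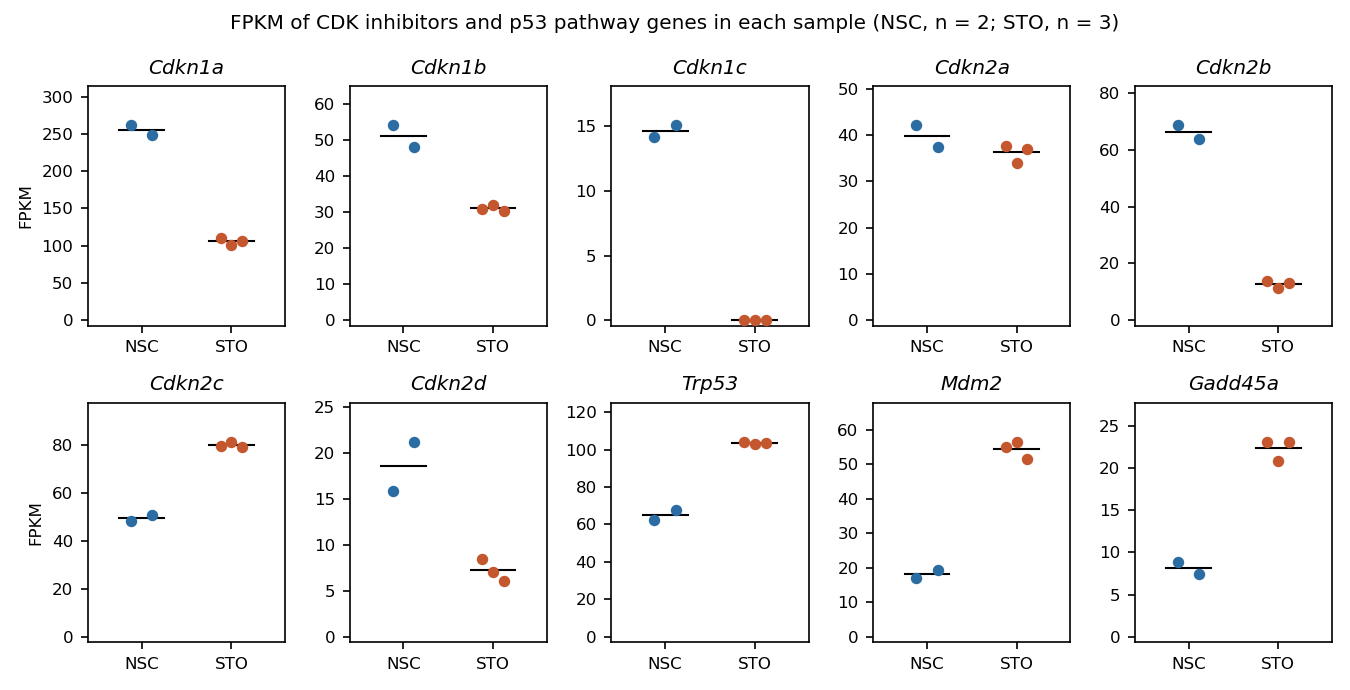
FPKM (y axis, from 0, a separate scale for each gene) of the 10 genes in each NSC (blue, n = 2) and STO (orange, n = 3) sample; points are samples and lines are group means. Cdkn2a alone overlaps between the groups, at 37.5 to 42.2 FPKM in NSCs and 34.1 to 37.7 in STO cells, and Cdkn1c is listed at 0 in all 3 STO samples.

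Within the Cip/Kip family, all 3 genes were lower in STO cells, by amounts that ranged from 1.64-fold for Cdkn1b to no listed expression for Cdkn1c. Cdkn1a encodes p21, the classic p53 target that arrests the cycle, and lies on mm9 at chr17:29227924-29237667 on the plus strand. Its level was 262 and 249 FPKM in the NSC samples and 110, 101 and 106 FPKM in the STO samples. Both NSC values were above every STO value, and Cdkn1a was the highest of the 10 genes in NSCs. The group means were 256 ± 9.11 FPKM (SD, n = 2) and 106 ± 4.45 FPKM (SD, n = 3), a 2.41-fold lower level in STO cells. The log2 difference of Cdkn1a was -1.26 with a standard error of 0.06 (limma, adjusted p = 3.19e-06).

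The files list 2 transcript rows for Cdkn1a, with start sites 2790 bases apart. Most Cdkn1a signal lay on NM_007669, the row with the downstream start, at 218 and 212 FPKM in NSCs and 99.1, 88.3 and 106 FPKM in STO cells. That row was lower in STO cells by itself, with a log2 difference of -1.13 (limma across 16257 rows, of which 77.1% were called, adjusted p = 0.000274). The row with the upstream start, NM_001111099, was at 44.3 and 37.7 FPKM in NSCs and at 11.2, 13.1 and 0 FPKM in STO cells. Its difference did not pass the test (adjusted p = 0.100), and without STO replicate 3, the sample listed at 0, it was -1.67 with an adjusted p of 0.00129. The values of both rows are Cufflinks estimates of how reads in shared exons divide between them.

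Promoter windows of both Cdkn1a starts are shown because the p53 half-site, the sequence that p53 binds in pairs, occurs in one and not in the other. The windows span 250 bases before to 50 after each start, read from RefSeq on GRCm38.p6, plus strand, at chr17:29090729-29091028 and chr17:29093519-29093818. Capitals mark matches to the p53 half-site in the first and GC boxes (GGGCGG) in the second, searched on both strands without a mismatch.
Cdkn1a NM_001111099: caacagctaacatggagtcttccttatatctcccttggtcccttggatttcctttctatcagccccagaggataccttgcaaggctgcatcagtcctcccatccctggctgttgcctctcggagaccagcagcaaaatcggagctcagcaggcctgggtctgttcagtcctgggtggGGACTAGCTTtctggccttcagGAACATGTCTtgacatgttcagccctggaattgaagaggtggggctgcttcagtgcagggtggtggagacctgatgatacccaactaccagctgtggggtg
Cdkn1a NM_007669: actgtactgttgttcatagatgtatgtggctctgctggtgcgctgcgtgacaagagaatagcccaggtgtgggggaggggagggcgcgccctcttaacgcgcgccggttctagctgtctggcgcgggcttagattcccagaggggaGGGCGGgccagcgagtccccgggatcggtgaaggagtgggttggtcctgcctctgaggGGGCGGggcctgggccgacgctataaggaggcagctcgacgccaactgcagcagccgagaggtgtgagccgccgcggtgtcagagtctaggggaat
The upstream window held 2 half-site matches, no GC box and 2 CpG dinucleotides, and the downstream window held no half-site, 2 GC boxes and 23 CpG. The 2 marked matches are not adjacent. The bases directly after the second fit the half-site except at their first base, and so are not marked. A half-site match occurred in 8.36% of 32851 RefSeq promoter windows of this length, and a GC box in 35.7%. Of the 12 windows listed for 9 of the 10 genes, 5 held a half-site match: this Cdkn1a window and those of Cdkn2d, Trp53, Mdm2 and Gadd45a. A GC box occurred in 9 of the 12. Such matches describe letters only. The 5 windows with a half-site belong to genes on either side of the comparison, since Cdkn1a and Cdkn2d were lower in STO cells and Trp53, Mdm2 and Gadd45a higher.

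Cdkn1b, which encodes p27, lies at chr6:134870419-134875543 (mm9, plus strand). It was measured at 54.2 and 48.2 FPKM in NSCs and at 30.9, 32.1 and 30.4 FPKM in STO cells. The groups did not overlap, with means of 51.2 ± 4.31 (SD, n = 2) and 31.1 ± 0.875 (SD, n = 3) FPKM. The log2 difference was -0.70 ± 0.07 (SE), the smallest among the genes called lower (limma, adjusted p = 8.98e-05).

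Cdkn1c encodes p57, an inhibitor from an imprinted gene, and lies at chr7:150644244-150646955 (mm9, minus strand). It was at 14.2 and 15.1 FPKM in the NSC samples and was listed at 0 in STO replicates 1, 2 and 3. All 3 of its transcript rows, which share 1 locus, were at 0 in STO cells, and NM_009876 carried most of the NSC signal, at 8.67 and 8.66 FPKM. Cdkn1c was called lower (limma, adjusted p = 7.87e-09), and no fold is given against a group listed at 0. The genes whose log2(FPKM + 1) lay closest to that of Cdkn1c over the 5 samples were Fam131a, Dner and Slitrk5, at Euclidean distances of 0.0405, 0.0503 and 0.0709. In NSCs those genes ranged from 13.5 to 15.3 FPKM, and in STO cells Fam131a and Slitrk5 were listed at 0 while Dner was at 0.0107 to 0.0244 FPKM.

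The INK4 family did not move in 1 direction. Cdkn2b and Cdkn2d were lower in STO cells, Cdkn2c was higher, and Cdkn2a did not pass the test.

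Cdkn2a lies at chr4:88920377-88940523 on the minus strand of mm9. Its level was 42.2 and 37.5 FPKM in NSCs and 37.7, 34.1 and 37.0 FPKM in STO cells, so that STO replicate 1 lay above NSC replicate 2. The means were 39.8 ± 3.35 (SD, n = 2) and 36.3 ± 1.95 (SD, n = 3) FPKM. The log2 difference was -0.13 with a 95% confidence interval of -0.31 to 0.05 (limma, adjusted p = 0.149).

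The deposited values place all Cdkn2a signal on the transcript that starts at the upstream first exon, NM_009877, which encodes p19Arf. NM_001040654, which encodes p16Ink4a and starts 12427 bases downstream, was listed at 0 in all 5 samples. Each transcript has 3 exons in the annotation and shares the later exons with the other, so the division between them rests on reads from the first exons as Cufflinks weighed them. The interval deposited with NM_009877 implied 583 to 798 fragments per sample. An exact 0 in such an estimate can be a failed division of reads, and a true absence of p16Ink4a transcript cannot be read from it.

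The windows around both Cdkn2a starts are shown because the measured signal is listed at one start and is 0 at the other. They were taken from RefSeq on GRCm38.p6, minus strand, at chr4:89294570-89294869 for the p19Arf row and chr4:89282143-89282442 for the p16Ink4a row. Capitals mark GC boxes (GGGCGG) and the E2F site TTTCCCGC, both strands searched.
Cdkn2a NM_009877 (p19Arf): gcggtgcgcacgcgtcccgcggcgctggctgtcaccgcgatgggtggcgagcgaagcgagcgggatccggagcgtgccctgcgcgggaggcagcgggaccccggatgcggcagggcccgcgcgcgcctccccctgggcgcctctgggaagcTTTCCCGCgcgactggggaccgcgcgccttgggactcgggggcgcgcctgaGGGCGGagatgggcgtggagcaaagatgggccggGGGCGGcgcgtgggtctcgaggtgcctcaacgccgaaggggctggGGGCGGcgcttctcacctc
Cdkn2a NM_001040654 (p16Ink4a): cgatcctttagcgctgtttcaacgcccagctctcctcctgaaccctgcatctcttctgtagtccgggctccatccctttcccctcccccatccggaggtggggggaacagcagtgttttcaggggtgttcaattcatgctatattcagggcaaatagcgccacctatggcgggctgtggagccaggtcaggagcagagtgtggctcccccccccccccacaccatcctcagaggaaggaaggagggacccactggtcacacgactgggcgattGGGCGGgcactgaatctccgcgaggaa
The p19Arf window held 45 CpG dinucleotides, 3 GC boxes and 1 TTTCCCGC site, and 77.0% of its bases were G or C. In the p16Ink4a window there were 12 CpG, 1 GC box and no E2F site, with 60.3% G or C. The median window of all genes held 7 CpG. TTTCCCGC occurred in 1.07% of all windows, and among the 12 windows of the 10 genes in the p19Arf window alone; the related site TTTGGCGC occurred in 0.514% of all windows and in none of the 12.

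Cdkn2b encodes p15Ink4b and lies next to Cdkn2a, at chr4:88952198-88956941 (mm9, minus strand), with a gap of 11.7 kb. It was at 68.7 and 63.8 FPKM in NSCs and at 13.7, 11.4 and 13.0 FPKM in STO cells, well apart. The mean was 5.21-fold lower in STO cells, 12.7 ± 1.17 (SD, n = 3) against 66.3 ± 3.50 FPKM (SD, n = 2), and the log2 difference was -2.30 ± 0.08 (SE; limma, adjusted p = 8.16e-07). Among the genes of this family with expression in both groups, this was the largest difference. Per length, NSCs thus held more Cdkn2b than Cdkn2a, with FPKM ratios of 1.63 and 1.70, and STO cells less, with ratios of 0.364, 0.336 and 0.350.

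Cdkn2c encodes p18Ink4c and lies at chr4:109333481-109339361 (mm9, minus strand). It was the one CDK inhibitor called higher in STO cells, at 79.6, 81.7 and 79.3 FPKM against 48.2 and 51.0 FPKM in NSCs. Every STO sample lay above both NSC samples. The means were 80.2 ± 1.30 (SD, n = 3) and 49.6 ± 1.98 FPKM (SD, n = 2), a 1.62-fold higher level in STO cells with a log2 difference of 0.68 ± 0.05 (SE; limma, adjusted p = 2.96e-05).

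As the deposited values divide it, most of the Cdkn2c difference lay in 1 of its 2 transcript rows. NM_007671, the row with the downstream start, was listed at 0 in both NSC samples and at 22.0, 26.1 and 24.7 FPKM in STO cells. It made up 27.6% to 31.9% of Cdkn2c FPKM in STO samples, with intervals that implied 309 to 500 fragments, and was called higher (limma, adjusted p = 3.04e-06). NM_001301368, whose start lies 1384 bases upstream, was at 48.2 and 51.0 FPKM in NSCs and at 57.6, 55.6 and 54.5 FPKM in STO cells. The log2 difference of that row was 0.17 (limma, adjusted p = 0.0268). It did not pass without NSC replicate 1 (0.13, adjusted p = 0.0825), without STO replicate 1 (0.15, adjusted p = 0.0792) or without STO replicate 2 (0.17, adjusted p = 0.0660). When Cdkn2c was represented by its highest row, the gene's log2 difference accordingly fell from 0.68 to 0.17 with an adjusted p of 0.0291. NM_007671 lies wholly within the locus of NM_001301368, so the division between the rows, the 0 in NSCs included, is a Cufflinks estimate, and a true absence of NM_007671 from NSCs cannot be read from it.

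Both Cdkn2c starts are shown because the second is the start of the row listed at 0 in NSCs. The windows are from RefSeq on GRCm38.p6, minus strand, at chr4:109666707-109667006 and chr4:109665323-109665622. Capitals mark GC boxes (GGGCGG).
Cdkn2c NM_001301368: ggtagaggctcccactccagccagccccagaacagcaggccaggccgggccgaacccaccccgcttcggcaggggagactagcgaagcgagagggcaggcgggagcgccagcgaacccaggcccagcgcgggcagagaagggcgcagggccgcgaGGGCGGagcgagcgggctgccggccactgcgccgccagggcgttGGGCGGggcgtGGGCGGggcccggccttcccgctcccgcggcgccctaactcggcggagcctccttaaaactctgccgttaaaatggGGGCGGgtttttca
Cdkn2c NM_007671: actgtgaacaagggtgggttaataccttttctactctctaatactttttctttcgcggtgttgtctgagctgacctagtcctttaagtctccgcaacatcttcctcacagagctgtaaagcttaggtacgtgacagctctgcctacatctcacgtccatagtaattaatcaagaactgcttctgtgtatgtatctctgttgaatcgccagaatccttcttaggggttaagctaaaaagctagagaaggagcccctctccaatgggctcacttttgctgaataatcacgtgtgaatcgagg
The window of NM_001301368, the row found in both cell types, held 4 GC boxes and 33 CpG, with 73.3% G or C. The window of NM_007671, the row listed in STO cells, held no GC box and 8 CpG, with 44.0% G or C, close to the median of 7 CpG over all windows. Neither held a TATA box (TATAAA), an E2F site or a p53 half-site.

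**Figure D2:**
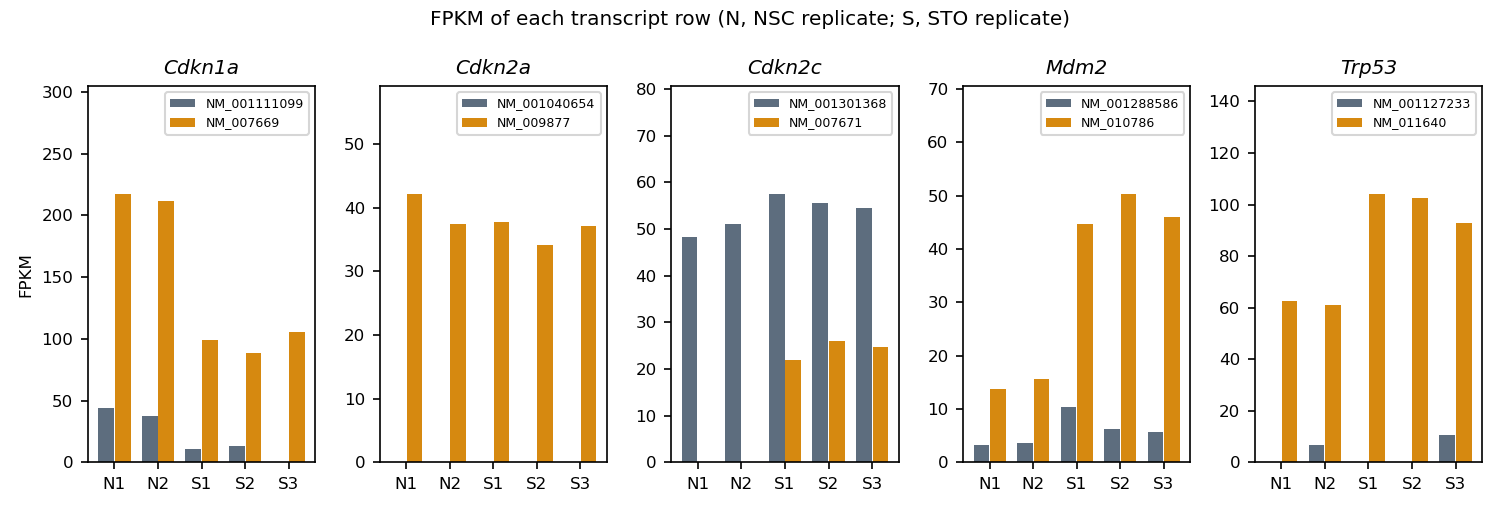
FPKM (y axis, from 0) of the transcript rows of Cdkn1a, Cdkn2a, Cdkn2c, Mdm2 and Trp53 in each NSC (N) and STO (S) replicate on the x axis, 1 bar per row and sample. NM_007671 of Cdkn2c stands at 0 in both NSC samples and at 22.0 to 26.1 in STO samples, and NM_001040654 of Cdkn2a at 0 throughout.

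Cdkn2d encodes p19Ink4d, and its main row lies at chr9:21092908-21095653 (mm9, minus strand). The summed level was 15.9 and 21.3 FPKM in NSCs and 8.45, 7.10 and 6.12 FPKM in STO cells. The groups did not overlap, although the NSC samples stood further from each other than those of the other genes did relative to their mean. The level was 2.57-fold lower in STO cells, 7.22 ± 1.17 (SD, n = 3) against 18.6 ± 3.82 FPKM (SD, n = 2), with a log2 difference of -1.25 ± 0.16 (SE; limma, adjusted p = 0.000358). A second row of the same transcript, at chr9:123836860-123839607, added 0.275 to 1.19 FPKM per sample. The annotation places Gm4694 there. Whether the loci share reads was not tested, so the level of this second row is uncertain.

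Summed over the 7 inhibitors, STO cells held less mRNA per length, 281, 268 and 272 FPKM against 506 and 486 FPKM in NSCs. The Cip/Kip sum was 331 and 312 FPKM in NSCs and 141, 134 and 136 FPKM in STO cells. The INK4 sum was 175 and 174 FPKM in NSCs and 140, 134 and 135 FPKM in STO cells. Cip/Kip genes therefore made up 64.3% to 65.4% of the sum in NSCs and 49.9% to 50.3% in STO cells. Cdkn1a was the main part in both, at 51.3% to 51.8% in NSCs and 37.9% to 39.3% in STO cells. Cdkn2c made up 9.54% and 10.5% of the sum in NSCs and 28.4%, 30.5% and 29.2% in STO cells, and Cdkn2b stood at 13.1% to 13.6% and 4.27% to 4.90%. Cdkn2a made up 8.35% and 7.71% in NSCs and 13.4%, 12.7% and 13.6% in STO cells. All of its FPKM is listed on the p19Arf row, which does not encode an INK4 protein. The INK4 sum, the sum of the 7 genes and all shares therefore hold FPKM that may not come from an inhibitor transcript.

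**Figure D3:**
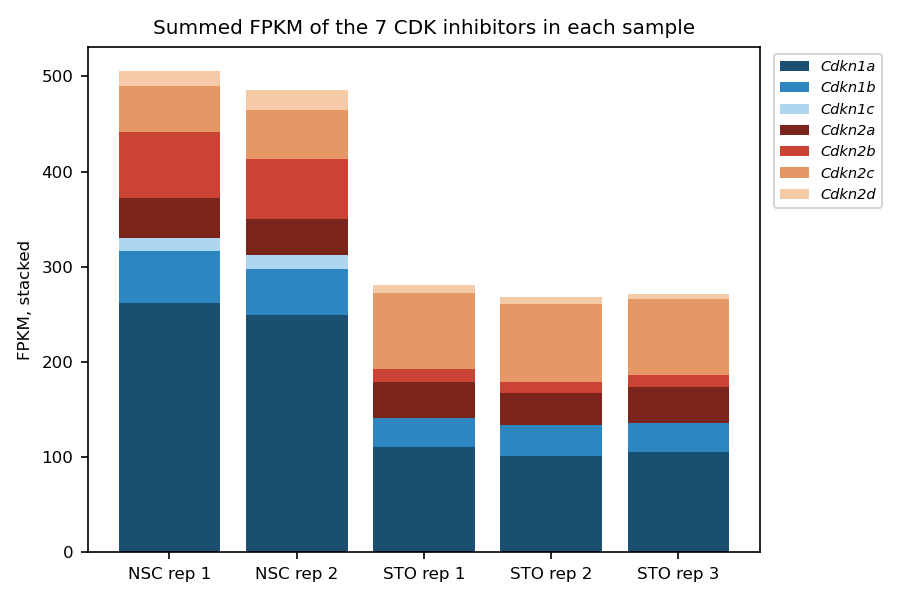
Stacked FPKM (y axis, from 0) of the 7 CDK inhibitors in each NSC and STO replicate on the x axis, Cip/Kip genes in blue and INK4 genes in red and orange. The 2 NSC bars reach 506 and 486 FPKM, mostly Cdkn1a, and the 3 STO bars 268 to 281 with a larger Cdkn2c segment. The Cdkn2a segment is stacked with the INK4 genes although all of its FPKM is listed on the p19Arf row.

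Trp53 and its antagonist Mdm2 were both higher in STO cells, and Mdm2 differed more. Trp53 lies at chr11:69393861-69405375 (mm9, plus strand). Its level was 62.5 and 67.9 FPKM in NSCs and 104, 103 and 103 FPKM in STO cells. The STO samples were nearly alike and all above the NSC samples. The mean was 1.59-fold higher, 103 ± 0.790 (SD, n = 3) against 65.2 ± 3.83 FPKM (SD, n = 2), with a log2 difference of 0.66 ± 0.06 (SE; limma, adjusted p = 5.27e-05). Nearly all of it was on NM_011640; the alternative row NM_001127233 was at 6.85 FPKM in NSC replicate 2, at 10.7 FPKM in STO replicate 3 and at 0 in the other 3 samples.

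Mdm2, the E3 ligase that keeps p53 low and is itself a p53 target, lies at chr10:117125931-117147814 (mm9, minus strand). It was at 17.0 and 19.2 FPKM in NSCs and at 55.0, 56.7 and 51.7 FPKM in STO cells. The lowest STO sample was far above the highest NSC sample. The mean was 3.01-fold higher in STO cells, 54.4 ± 2.55 (SD, n = 3) against 18.1 ± 1.57 FPKM (SD, n = 2), and the log2 difference was 1.54 ± 0.07 (SE; limma, adjusted p = 2.62e-06). This was the largest rise among the 10 genes, and it stood at percentile 90.1 of the log2 differences of all genes tested. The main row, NM_010786, was called higher by itself with a log2 difference of 1.62 (limma, adjusted p = 6.83e-05). The genes closest to Mdm2 over the 5 samples were Mob1a, Ltbr and Socs5, at Euclidean distances of 0.182, 0.193 and 0.194 on the log2 scale.

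The ratio of Mdm2 to Trp53 FPKM was 0.272 and 0.283 in NSCs and 0.527, 0.552 and 0.500 in STO cells. For Cdkn1a the ratio to Trp53 went the other way, with 4.19 and 3.67 in NSCs and 1.06, 0.988 and 1.03 in STO cells. Neither ratio overlapped between the groups. Both share the Trp53 values, and they are descriptions of levels without a test.

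Gadd45a, a p53 target that takes part in the response to DNA damage, lies at chr6:66985090-66987401 (mm9, minus strand). Its level was 8.91 and 7.42 FPKM in NSCs, where it was the lowest of the 10 genes, and 23.2, 20.9 and 23.2 FPKM in STO cells. The groups were apart, with means of 22.4 ± 1.31 (SD, n = 3) and 8.17 ± 1.05 FPKM (SD, n = 2), a 2.75-fold difference. The log2 difference was 1.36 ± 0.09 (SE; limma, adjusted p = 1.31e-05). Its exons share 337 bases with E230016M11Rik, a noncoding gene on the opposite strand that was listed at 0 in all 5 samples; whether quantification used strand is not given in the sources used here, so reads of the pair cannot be told apart. Of its relatives, Gadd45b was higher in STO cells (3.39 and 3.81 against 11.7, 9.99 and 11.1 FPKM, log2 difference 1.38, limma adjusted p = 8.09e-06). Gadd45g was lower (27.3 and 27.2 against 20.2, 15.7 and 17.8 FPKM, log2 difference -0.58, limma adjusted p = 0.00177). The members of the GADD45 family thus stood on different sides.

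**Figure D4:**
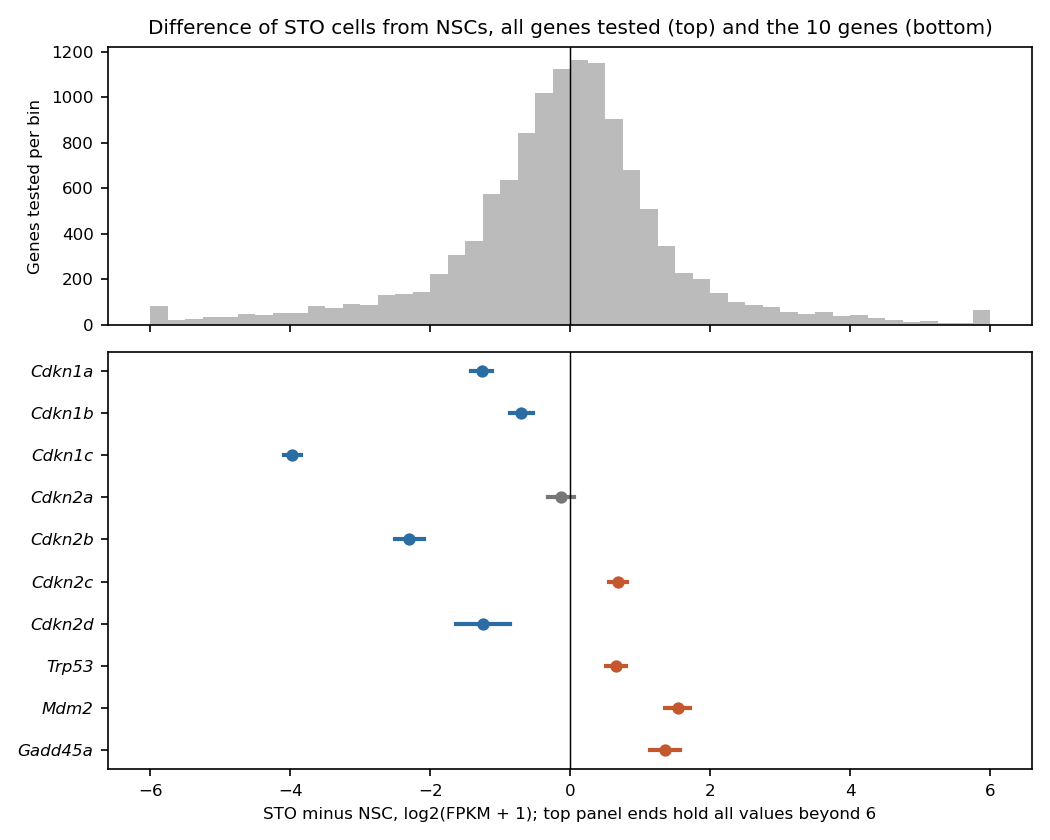
Top, number of genes tested (y axis) per bin of the STO minus NSC difference on log2(FPKM + 1) (x axis). Bottom, the same difference for the 10 genes, points with 95% confidence intervals (lines), orange for higher, blue for lower and grey for not called; the points run from -3.97 for Cdkn1c, which is listed at 0 in STO cells, to 1.54 for Mdm2, and the interval of Cdkn2a alone includes 0.

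In NSCs the 10 genes stood in the order Cdkn1a, Cdkn2b, Trp53, Cdkn1b, Cdkn2c, Cdkn2a, Cdkn2d, Mdm2, Cdkn1c and Gadd45a by mean FPKM. The neighbours Cdkn2b and Trp53, Cdkn1b and Cdkn2c, and Cdkn2d and Mdm2 had overlapping ranges. In STO cells the order was Cdkn1a, Trp53, Cdkn2c, Mdm2, Cdkn2a, Cdkn1b, Gadd45a, Cdkn2b, Cdkn2d and Cdkn1c, and Cdkn1a and Trp53 alone overlapped as neighbours. Cdkn2b went from rank 2 to rank 8, and Mdm2 from rank 8 to rank 4.

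Among the kinases and cyclins that the inhibitors bind, Cdk6 was higher in STO cells and the D-type cyclins Ccnd1 and Ccnd2 were lower. Cdk6, a kinase bound by INK4 proteins, was at 0.397 and 0.461 FPKM in NSCs and at 25.5, 26.3 and 19.6 FPKM in STO cells, a log2 difference of 4.11 (limma, adjusted p = 3.57e-07). The related kinase Cdk4 was at 326 and 342 FPKM in NSCs and 347, 311 and 332 FPKM in STO cells. Cdk4 did not pass the test (log2 difference -0.02, limma adjusted p = 0.829). With quantile normalization its difference was 0.16 with a limma adjusted p of 0.0448. Ccnd1, which like Ccnd2 activates both kinases, was at 677 and 650 FPKM in NSCs and 120, 123 and 126 FPKM in STO cells (log2 difference -2.42, limma adjusted p = 1.05e-07). Ccnd2 was at 418 and 403 FPKM against 27.9, 29.5 and 23.7 FPKM (log2 difference -3.88, limma adjusted p = 1.25e-07). Ccnd3, also a D-type cyclin and named here after its values were seen, did not pass the test (log2 difference 0.15, limma adjusted p = 0.0714). It was at 60.6 and 65.4 FPKM in NSCs and 73.1, 66.9 and 69.4 FPKM in STO cells. Summed D-type cyclin levels, Ccnd3 included, were 1156 and 1118 FPKM in NSCs and 219 to 221 FPKM in STO cells. Cdk2, the kinase bound by Cip/Kip proteins, was called higher (17.4 and 18.6 against 24.8, 21.8 and 21.9 FPKM, log2 difference 0.32, limma adjusted p = 0.00609), and did not pass without NSC replicate 1 (0.28, adjusted p = 0.0768). Of 11 CDKs and cyclins tested, 4 were higher, 4 lower and 3 not called, near the 41.9% and 43.7% of all genes, with a median log2 difference of 0.08; without NSC replicate 1, 2 were higher.

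Of 10 factors tested that turn the inhibitors over, 5 were higher in STO cells, 3 lower and 2 not called, beside 41.9% and 43.7% of all genes, with a median log2 difference of 0.25. None was called with a difference of 1 or more, beside 38.4% of all genes. Skp2, the F-box protein that leads p27 to degradation, was at 13.2 and 14.1 FPKM in NSCs and 15.2, 15.2 and 15.4 FPKM in STO cells (log2 difference 0.15, limma adjusted p = 0.0326). The call of Skp2 was lost when NSC replicate 1 or any 1 STO replicate was left out, with adjusted p of 0.0675 to 0.0801. The 15 proliferation markers held 9 higher, 3 lower and 3 not called, beside 41.9% higher and 43.7% lower among all genes, with none called at 1 or more, and summed to 975 to 994 FPKM in NSCs and 1028 to 1082 FPKM in STO cells.

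Known p53 target genes stood on both sides, while Trp53 itself was higher in STO cells. Of 33 tested, 8 were higher in STO cells, 19 lower and 6 not called, beside 41.9% higher and 43.7% lower among all genes, with a median log2 difference of -0.52. By a log2 difference of at least 1, 4 were higher and 5 lower, beside 17.1% and 21.3% of all genes. The alternatives run gave 6 to 9 higher and 16 to 19 lower. At the high end, Fas, a death receptor, was at 3.21 and 3.01 FPKM in NSCs and 55.4, 54.5 and 59.3 FPKM in STO cells (log2 difference 3.80, limma adjusted p = 1.73e-08), and Tnfrsf10b, another death receptor, differed by 1.86 (adjusted p = 1.00e-06). Plk3, a stress-responsive kinase, was higher by 1.85 (limma, adjusted p = 1.86e-06). At the low end, Pmaip1, which encodes the BH3-only protein Noxa, was at 8.35 and 8.50 FPKM in NSCs and was listed at 0 in all 3 STO samples (limma, adjusted p = 9.85e-09). Abhd4 was lower, with a log2 difference of -1.69 (limma, adjusted p = 6.62e-07). Sesn2, a stress-induced regulator of metabolism, was at 29.2 and 30.6 FPKM against 9.37, 9.06 and 8.83 FPKM (log2 difference -1.61, limma adjusted p = 5.10e-07).

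**Figure D5:**
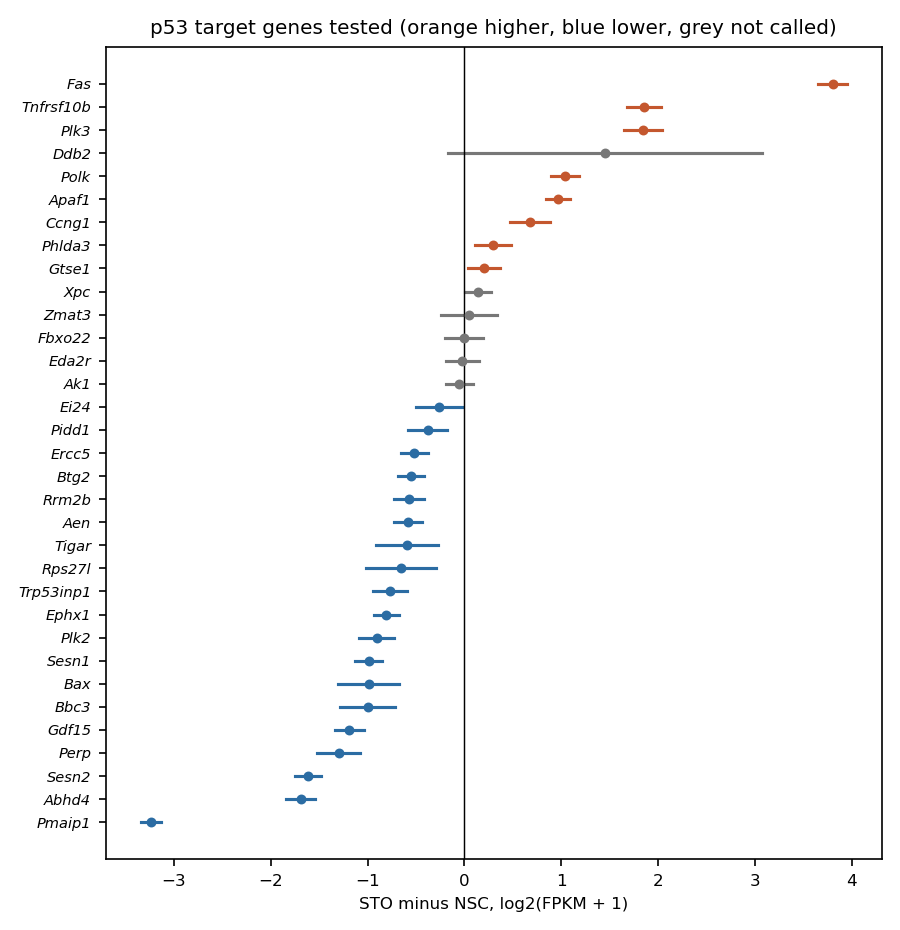
STO minus NSC difference on log2(FPKM + 1) (x axis) of the 33 p53 target genes tested (y axis, sorted), points with 95% confidence intervals (lines). The 8 genes called higher are orange, the 19 called lower blue and the 6 not called grey; the values run from -3.24 for Pmaip1 to 3.80 for Fas.

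Regulators of p53 were mostly higher in STO cells, with 13 of 18 tested higher, 4 lower and 1 not called and a median log2 difference of 0.46, against 41.9% higher and 43.7% lower among all genes. By a log2 difference of at least 1, 1 was higher and 2 lower, beside 17.1% and 21.3% of all genes. Mdm4, the Mdm2 relative that holds p53 inactive, was at 11.0 and 10.3 FPKM in NSCs and 20.6, 19.3 and 18.5 FPKM in STO cells (log2 difference 0.81, limma adjusted p = 3.35e-05). Rchy1, another E3 ligase for p53, was the 1 gene higher by at least 1 (1.19, limma adjusted p = 3.15e-06). Ppm1d, the phosphatase Wip1 that is itself induced by p53, was at 12.9 and 13.7 FPKM in NSCs and 6.68, 6.63 and 6.86 FPKM in STO cells (log2 difference -0.89, limma adjusted p = 8.94e-06). Hipk2, a kinase that phosphorylates p53, was lower by -1.55 (limma, adjusted p = 2.54e-05). Rpl11, a ribosomal protein that can bind Mdm2, was lower as well (-1.33, limma adjusted p = 1.67e-05).

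Of 17 Cdkn2a regulators tested, 12 were higher in STO cells, 4 lower and 1 not called, beside 41.9% higher and 43.7% lower among all genes, with a median log2 difference of 0.40; without NSC replicate 1, 2 were lower. Id1, which opposes the activation of p16Ink4a by ETS factors, was at 6.74 and 7.49 FPKM in NSCs and 110, 88.2 and 102 FPKM in STO cells (log2 difference 3.64, limma adjusted p = 2.27e-07). Tbx3, a repressor of the p19Arf promoter, was listed at 0 in both NSC samples and at 7.38, 7.67 and 6.77 FPKM in STO cells. E2f1, an activator of p19Arf, was higher by 1.15 (limma, adjusted p = 2.41e-05). A repressor and an activator of p19Arf were thus both higher in STO cells, and the summed Cdkn2a level did not pass the test.

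Around Cdkn2a on chromosome 4, the adjacent Cdkn2b, 11.7 kb away, was lower in STO cells (log2 difference -2.30). Most of the other neighbours tested were higher. Mtap, a metabolic gene 93.4 kb from Cdkn2a, was at 44.7 and 49.0 FPKM in NSCs and 84.0, 88.5 and 97.5 FPKM in STO cells (log2 difference 0.93, limma adjusted p = 5.60e-05). Mllt3 and Focad, 1241 and 863 kb away, were higher by 1.68 and 1.32 (limma, adjusted p = 8.07e-07 and 1.65e-06). Of the 5 listed neighbours tested, Cdkn2b not among them, 4 were higher and 1 lower, beside 41.9% and 43.7% of all genes. The nearest gene listed on the Cdkn2b side, Dmrta1, named here after its values were seen, lies 414 kb from Cdkn2a and was too low to be tested, at 0.336 and 0.392 FPKM in NSCs and 0, 0.00950 and 0.0286 FPKM in STO cells. Elavl2, named here after its value was seen, was the 1 called lower, by -0.17 (limma, adjusted p = 0.0419), and its call was lost without NSC replicate 1, NSC replicate 2, STO replicate 1 or STO replicate 3 (adjusted p = 0.0741 to 0.178). Elavl2 was also not called with a pseudocount of 0.1, no filter, quantile normalization or the replicate block (adjusted p = 0.0558 to 0.144), and was called higher when its highest row stood for the gene (0.39, adjusted p = 0.00475).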

How the data were processed

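Total RNA of 2 NSC and 3 STO samples was sequenced from KAPA stranded mRNA libraries. The authors trimmed and aligned the paired reads to mm9 with HISAT2 at default settings and deposited FPKM values, with confidence intervals, from Cufflinks 2.2.1 on RefSeq transcripts, 1 file per sample. Counts were not used here, and whether quantification used strand is not given in the sources used here. Rows were joined on transcript identifier and locus, and 39951 of 40201 matched a gene symbol in a RefSeq table. FPKM were summed per symbol. Differences were tested with limma 3.58.1 (R 4.3.3) with a mean-variance trend, on log2(FPKM + 1), over 12277 genes with a mean of at least 1 FPKM in either cell type; the code was tested on simulated data. Fold changes on this scale understate those of low genes. Fragments were implied as the square of each FPKM over its standard deviation, with the interval read as 2 standard deviations on each side. They do not cover the spread between samples, and they are not plain counts. Cdkn1a row NM_007669 had 1949 at 218 FPKM in NSC replicate 1 and 1456 at 99.1 FPKM in STO replicate 1. Cdkn1b had 4073 at 54.2 FPKM in NSC replicate 1. Interval widths thus hold more than counting error. No pair of replicates held identical values. Variance between replicates was 4.41 to 6.55 times the variance that the implied fragments give.

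The 10 genes and all gene lists were chosen with earlier results of these data known. Besides the 10 genes, the text names up to 3 genes with the largest rise and 3 with the largest fall of each pathway list among those called, with a log2 difference of at least 1 and no overlap between groups. It always names Mdm4, Ppm1d, Cdk2, Cdk4, Cdk6, Ccnd1, Ccnd2, Gadd45b, Gadd45g, Mtap and Skp2, and the 3 genes nearest to the genes with the largest rise and fall. Coordinates are on mm9, exon counts from GENCODE on NCBIM37, and promoter windows from RefSeq on GRCm38.p6. Alternatives were a pseudocount of 0.1, no filter, quantile normalization, upper quartile scaling, no trend, a replicate block, the highest transcript row of each gene, and each sample left out. After seeing the data, Cdkn2d was also fitted without its second locus, and transcript rows with a pseudocount of 0.1 and with each sample left out. 1 NSC marker is not reported here and was left out of its list.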

Additional observations from a re-analysis of the deposited data

How the results depend on the processing

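Under the 12 alternatives run for all genes, 4 of the 10 genes were called higher and 5 lower throughout, and no sign or call among them changed. Cdkn2a ranged from -0.21 to -0.05 on the log2 scale, with adjusted p of up to 0.606. Cdkn2c ranged from 0.17 with its highest row to 0.74, and Cdkn1c, listed at 0 in STO cells, from -7.20 with a pseudocount of 0.1 to -3.27 with its highest row. Cdkn2d was at -1.28 without its second locus. The median of all genes lay between -0.04 and 0.04 under every alternative. Over all genes, 4988 were called higher and 5249 lower with a replicate block. Deviations of samples that share a number correlated at 0.00293 and 0.0645. The deviations of the 2 NSC samples mirror each other, so these values cannot show whether samples were handled in pairs. The block changed no call among the 10 genes.

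Of the other genes named, Cdk4, not called, changed sign with quantile normalization (0.16, called) and ranged from -0.0534 to 0.0238 with 1 sample left out. Elavl2 changed sign with its highest row (0.39, adjusted p = 0.00475), and lost its call with a pseudocount of 0.1, no filter, quantile normalization and the replicate block. The minor Trp53 row NM_001127233, never called, ranged from -1.79 to 1.18 with 1 sample left out. The cause of these changes was not tested. Skp2 lost its call with quantile normalization and with the replicate block. The Mdm2 row NM_001288586 lost its call without NSC replicate 1 (adjusted p = 0.171) or NSC replicate 2 (adjusted p = 0.139). With 2 NSC samples, leaving 1 out assumes that the other varies like the STO samples. Depth limits the second Cdkn2d row, with as few as 11.0 implied fragments.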

Other observations

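Markers of microglia, endothelium and germ cells left little signal in either group. The 4 microglia markers summed to 0.295 to 0.419 FPKM in NSCs and 0.204 to 0.389 FPKM in STO cells, and the 3 endothelial markers to 0.452 to 0.503 and 0.133 to 0.237 FPKM, so none of these 7 genes entered the test. The 3 germ cell markers summed to 1.71 to 1.89 FPKM in NSCs and 0 to 0.0558 FPKM in STO cells; Zbtb16, a transcription factor that is also expressed outside the germ line, was the 1 gene of them tested and was lower in STO cells, where it was listed at 0.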
